A study of Mus musculus with 2 samples.

Results

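This account covers 46 genes that encode the working parts of the early secretory pathway in the endoplasmic reticulum (ER): the translocon and signal peptidase, the folding chaperones, the sensors and transcription factors of the ER stress response, the COPII vesicle coat, and the receptors that carry or retrieve cargo. They were taken by gene symbol from knowledge of their function, with earlier results of these data known. All 46 were found among the 22096 symbols of the files. The cells came from forelimbs of E13.5 mouse embryos (mixed strain background) that carried the ScxGFP reporter. In these embryos green fluorescent protein is driven by regulatory sequence of *Scx*, the gene for scleraxis, which marks the progenitors of tendon and ligament. Sorting by fluorescence gave a ScxGFP-positive and a ScxGFP-negative population, each sequenced as 1 library of RNA from 6 pooled forelimbs (3 pairs). The negative cells are all other cells of the limb that passed the sort, so they are a mixture of lineages and not a single cell type.

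Proteins destined for secretion enter the ER while they are being made, through the channel of the Sec61 complex. Signal peptidase removes the leader sequence, and chaperones and disulphide isomerases then help the chain to fold. Folded cargo leaves the ER in COPII-coated vesicles, and receptors of the Golgi return escaped chaperones to the ER. When unfolded protein accumulates, the sensors IRE1, PERK and ATF6 raise the transcription of chaperone and degradation genes, which is the unfolded protein response. Tendon progenitors, cartilage cells and other matrix-forming cells rely on this pathway to export collagen.

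Levels are given as FPKM, a fragment number scaled by transcript length and by library size, and a gene's value is the sum of its listed transcripts. Ratios are log2 of positive over negative FPKM after adding 1 to each, which understates differences of genes at low levels. With 1 library in each group there is no test, and every difference describes this pair of libraries without a replicate check. *Scx* itself stood at 134 FPKM in positive cells, against 1.69 FPKM in negative cells, in the direction of the labels. Summed over transcripts, aligned sequence came to 0.687 gigabases for positive cells and 0.875 gigabases for negative cells. Each member rested on at least 5149 aligned bases in positive and 5947 in negative cells. A gene counted as measured with at least 1 FPKM in either library, which held for 12096 genes and for 46 of the 46 members, all with an estimate marked OK in both files.

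As deposited, the early secretory pathway was expressed at nearly the same level in both populations. Of the 46 genes, 0 reached a 2-fold higher level in ScxGFP-positive cells, and 2 a 2-fold lower level (*Sdf2l1* and *Sec11c*), which left 44 within 2-fold. Among all measured genes 4.03% were higher and 9.98% were lower by that much. The members' share of lower genes was 4.35%. For genes whose mean FPKM lay between the members' lower and upper quartiles (7.39 to 28.5), the shares were 3.96% higher and 8.09% lower. The members' median log2 ratio was -0.11, against -0.27 for all measured genes, so it lay 0.15 above that median, and 33 of 46 members lay above it. The middle 50% of the members' ratios spanned 0.43 log2 units, against 0.58 for all measured genes. Signs near 0 depend on the scaling: the median of all genes was 0.01 with the median ratio set to 1, -0.03 with equal upper quartiles, and 0.12 once both libraries were scaled to the same total (TPM). The members' median was then 0.16, 0.12 and 0.29. Directions below are therefore given relative to the median of all genes. Under these 3 scalings the members past 2-fold were 0 higher and 1 lower, *Sdf2l1*. Of all genes past 2-fold, higher ones made up 28.8% as deposited and 43.9%, 41.7% and 49.7% under the same 3 scalings.

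These genes were among the more abundant transcripts of both libraries. The median member stood at percentile 88.7 of measured genes in positive cells and at percentile 87.7 in negative cells. Their FPKM added up to 1192 in positive cells and 1267.5 in negative cells. That was 0.736% and 0.575% of all FPKM, or 0.939% and 0.720% once haemoglobin genes and transcripts under 200 bases were left out of the total.

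**Figure D1:**
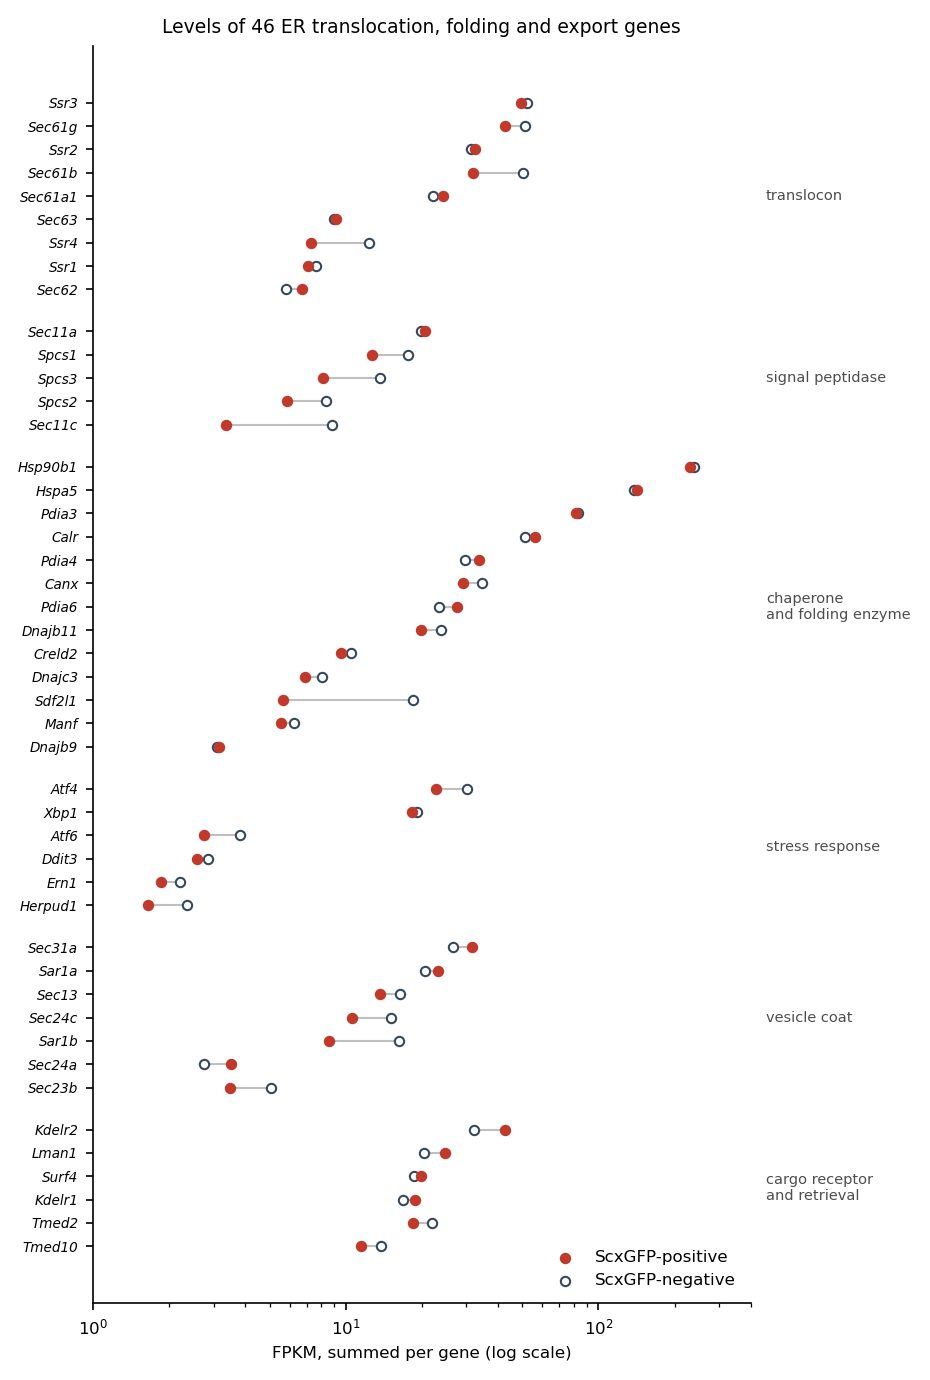
FPKM of each of the 46 genes (log axis, summed over transcripts) in the ScxGFP-positive library (filled red) and the ScxGFP-negative library (open), grouped by role and ordered by level in positive cells. The pairs of points lie close together across a range of 1.65 to 230.1 FPKM in positive cells, with the widest gaps at *Sdf2l1* and *Sec11c*.

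Of the 9 translocon genes, 7 lay above the median of all genes, and *Sec61b* and *Ssr4* lay below it in all 12 settings. *Sec61a1*, which encodes the channel itself, stood at 24.2 FPKM in positive cells and 22.1 FPKM in negative cells. Of the small subunits that embrace the channel, *Sec61g* stood at 42.8 FPKM in positive and 51.4 FPKM in negative cells, and *Sec61b* at 32.0 FPKM in positive and 50.2 FPKM in negative cells. Their log2 ratios were 0.13 for *Sec61a1*, -0.26 for *Sec61g* and -0.63 for *Sec61b*, so the channel gene lay 0.39 above the median of all genes and *Sec61b* lay 0.37 below it. The order of FPKM, alpha below beta below gamma, was the same in both libraries.

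As deposited, most auxiliary factors of the channel had similar FPKM in both libraries. *Sec62* stood at 6.71 FPKM in positive and 5.82 FPKM in negative cells, and *Sec63*, which recruits the luminal Hsp70 chaperone to the channel through a J domain, at 9.18 and 9.01 FPKM in the same order. The translocon-associated protein complex (TRAP) has 4 subunits. Of these, *Ssr1* had 7.10 FPKM in positive and 7.60 FPKM in negative cells, *Ssr2* had 32.5 and 31.4 FPKM, and *Ssr3* had 49.3 and 52.1 FPKM. *Ssr4*, the gene of the delta subunit, was the exception at 7.32 FPKM in positive and 12.4 FPKM in negative cells, a log2 ratio of -0.69. The median log2 ratio of the 9 translocon genes was -0.08, 0.19 above that of all genes, and it was 0.25, 0.21 and 0.37 under the 3 other scalings.

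Signal peptidase was the only one of the 6 roles whose median lay more than 0.1 below that of all genes. The median log2 ratio of its 5 genes was -0.45, 0.18 below all genes, and it stayed negative under the 3 other scalings at -0.16, -0.20 and -0.07. The enzyme has alternative catalytic subunits, and these differed from each other. *Sec11a* stood at 20.6 FPKM in positive and 19.9 FPKM in negative cells, whereas *Sec11c* stood at 3.36 FPKM in positive and 8.84 FPKM in negative cells. *Sec11a* had a log2 ratio of 0.04 and *Sec11c* of -1.17 (mm9 chromosome 18, 65960232 to 65977311). *Sec11a* was thus the more abundant catalytic gene in both libraries, and by a wider margin in positive cells. The positive value of *Sec11c* rests on 5911 aligned bases, and its ratio was -0.91 relative to all genes, inside 2-fold. Of the accessory subunit genes, *Spcs1* stood at 12.7 FPKM in positive and 17.7 FPKM in negative cells, *Spcs2* at 5.84 and 8.34 FPKM, and *Spcs3* at 8.12 and 13.6 FPKM. Their log2 ratios were -0.44, -0.45 and -0.68, and they stayed below 0 under the 3 other scalings, for *Spcs1* only by 0.03 with TPM (-0.03).

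As deposited, the abundant folding genes had nearly equal FPKM in both populations. *Hsp90b1*, the gene for the ER form of Hsp90 (GRP94), had the highest FPKM of all members, with 230.1 in positive and 239.5 in negative cells. *Hspa5*, which encodes BiP, the ER form of Hsp70 and the usual marker of ER stress, stood at 142 FPKM in positive and 138 FPKM in negative cells (mm9 chromosome 2, 34627610 to 34632049). Their log2 ratios were -0.06 and 0.04, which lay 0.21 and 0.31 above the median of all genes. With TPM these ratios were 0.39 and 0.48. The lectin chaperones bind sugar chains on new glycoproteins. *Calr* (calreticulin) stood at 55.9 FPKM in positive and 51.3 FPKM in negative cells, and *Canx* (calnexin) at 29.0 FPKM in positive and 34.7 FPKM in negative cells.

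The disulphide isomerases lay within a narrow band. *Pdia3*, the partner of the lectin chaperones, stood at 81.3 FPKM in positive and 83.0 FPKM in negative cells, *Pdia4* at 33.6 and 29.8 FPKM, and *Pdia6* at 27.5 and 23.3 FPKM. *Pdia6* had the highest log2 ratio of the folding group, 0.23. Of the J-domain co-chaperones of BiP, *Dnajb9* stood at 3.15 FPKM in positive and 3.09 FPKM in negative cells, *Dnajb11* at 19.8 and 23.8 FPKM, and *Dnajc3* at 6.92 and 8.09 FPKM. *Manf*, a small ER protein induced by stress and partly secreted, stood at 5.52 FPKM in positive and 6.27 FPKM in negative cells, and *Creld2*, another stress-induced ER protein, at 9.56 and 10.5 FPKM. Of the 13 folding genes, 12 lay above the median of all genes, and their median log2 ratio was -0.06, or 0.28, 0.23 and 0.39 under the 3 other scalings.

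*Sdf2l1*, which works with the BiP system to keep misfolded protein soluble, was the exception among the folding genes. It stood at 5.66 FPKM in positive and 18.5 FPKM in negative cells, so its positive value was 30.6% of its negative value (mm9 chromosome 16, 17130231 to 17132476). The log2 ratio was -1.55, and -1.28 relative to the median of all genes. Without that reference it stayed at least 2-fold lower under each of the 11 other settings tried, between -1.69 and -1.13. With a pseudocount of 5 it was -1.141 and the median of all genes -0.145, so relative to that median it lay just inside 2-fold. The values rest on 14327 aligned bases in positive and 48976 in negative cells. Its paralogue *Sdf2*, which is not induced by ER stress, stood at 6.33 FPKM in positive and 7.68 FPKM in negative cells.

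Several folding genes carry the ER stress element, through which ATF6 and XBP1 act together with the factor NF-Y, in their promoters. The element, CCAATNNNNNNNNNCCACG, was searched on both strands in the 250 bases before the annotated start, in the RefSeq promoter table of build GRCm38.p6. Of the 46 members 37 had a promoter there, and 7 of these held a match, all 7 from the folding group. Of all 32851 promoters in the table, which cover 27025 symbols, 0.113% held one. Here and below, members count by gene and the whole table by promoter, where a gene can have several. The matches are shown because their genes include *Hsp90b1* and *Hspa5*, the members of highest FPKM. They also include *Creld2* and *Dnajc3*, at 9.56 and 6.92 FPKM in positive cells, below the members' median of 16.0 FPKM there. Each line gives the gene strand, 5′ to 3′, with the ends of the element in capitals, CGTGG and ATTGG where it lies on the other strand. The second *Hsp90b1* match lies nearer to the start than the first.
Hspa5, chr2:34772005-34772063, plus strand: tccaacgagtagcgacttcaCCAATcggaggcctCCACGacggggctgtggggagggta
Hsp90b1 first match, chr10:86705618-86705676, minus strand: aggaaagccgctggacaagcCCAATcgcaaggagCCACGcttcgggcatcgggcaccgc
Hsp90b1 second match, chr10:86705513-86705571, minus strand: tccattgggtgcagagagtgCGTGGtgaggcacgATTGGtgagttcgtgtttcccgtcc
Calr, chr8:84847055-84847113, minus strand: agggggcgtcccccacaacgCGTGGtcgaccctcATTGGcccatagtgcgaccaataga
Canx, chr11:50325780-50325838, minus strand: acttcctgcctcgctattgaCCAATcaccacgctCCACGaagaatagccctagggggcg
Pdia6, chr12:17266471-17266529, plus strand: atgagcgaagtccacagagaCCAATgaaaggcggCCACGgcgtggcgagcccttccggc
Dnajc3, chr14:118937807-118937865, plus strand: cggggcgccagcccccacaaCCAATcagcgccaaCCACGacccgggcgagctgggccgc
Creld2, chr15:88819500-88819558, plus strand: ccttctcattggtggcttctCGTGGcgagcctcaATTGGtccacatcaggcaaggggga

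The 7 genes with the element had log2 ratios between -0.25 and 0.23, with a median of -0.06. The 5 folding genes with a promoter in the table and no match (*Pdia3*, *Pdia4*, *Dnajb9*, *Dnajb11* and *Sdf2l1*) had ratios between -1.55 and 0.17, with a median of -0.03. For *Sdf2l1* the absence of a match says only that these exact letters are not in this window. A second form of the element, ATTGGNCCACG, was found upstream of *Herpud1* alone among the members and in 0.0304% of all promoters. Its window is shown because *Herpud1* is the member on which a match of that form and of an ATF4 site occur together.
Herpud1, chr8:94386357-94386407, plus strand: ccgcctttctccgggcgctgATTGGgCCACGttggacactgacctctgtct

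The site of ATF4, TGATGNAA, lay upstream of *Herpud1* and *Kdelr1* and in 3.45% of all promoters. The XBP1 site TGACGTGG lay upstream of 0 members and in 0.563% of all promoters. No match of 1 motif overlapped a match of another among the members. Of the 87 other pathway genes with a promoter, 8 held the XBP1 site (*Arf1*, *Copb1*, *Kdelr3*, *Sec16b*, *Sec24d*, *Txndc5*, *Ube2j1* and *Vcp*) and 4 the ATF4 site (*Asns*, *Atf3*, *Chac1* and *Txndc5*). The ER stress element was found upstream of 2, *Derl3* and *Syvn1*, which act in degradation of misfolded ER protein. *Syvn1* stood at 10.8 FPKM in positive and 10.03 FPKM in negative cells, and *Derl3* was under 1 FPKM in both.

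**Figure D2:**
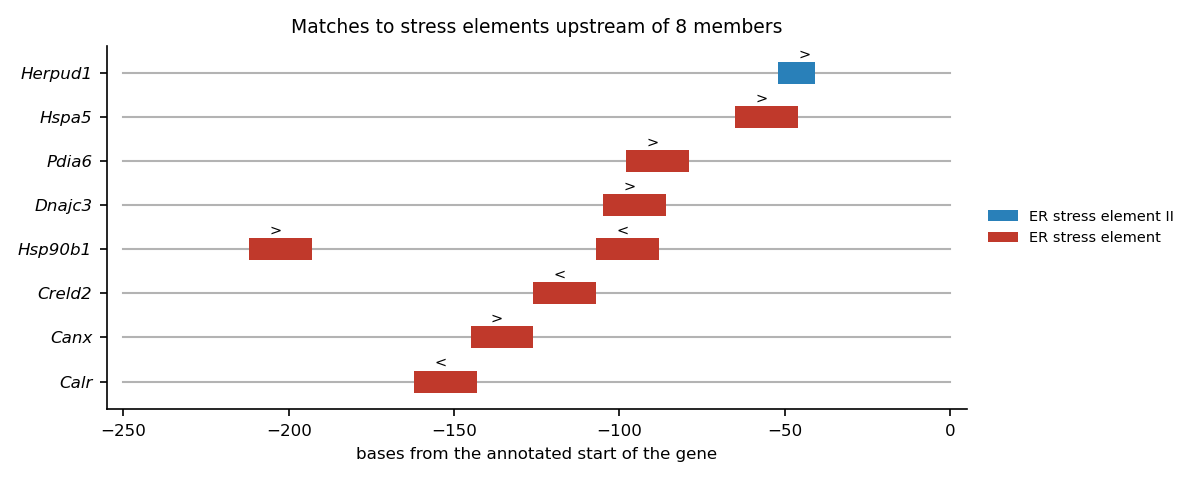
Positions of matches to the ER stress element (red) and its second form (blue) in the 250 bases before the annotated start of 8 genes, in bases from that start; arrowheads give the strand of the match relative to the gene. The matches of the 7 folding genes begin between 65 bases (*Hspa5*) and 212 bases (*Hsp90b1*) before the start.

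None of the 6 genes of the stress response itself reached 2-fold, and neither did 10401 of the 12096 measured genes. *Atf4* and *Xbp1* were as abundant as the median member or more so, at percentiles 92.7 and 90.6 of measured genes in positive cells and 93.2 and 88.6 in negative cells, and the other 4 were under 4 FPKM in both. *Ern1*, the gene of the sensor IRE1, stood at 1.86 FPKM in positive and 2.22 FPKM in negative cells, and the sensor gene *Atf6* at 2.75 and 3.81 FPKM. *Xbp1*, whose messenger RNA is spliced by IRE1, stood at 18.3 FPKM in positive and 19.2 FPKM in negative cells. The files list 1 *Xbp1* transcript, so the spliced and unspliced forms were not told apart. *Atf4*, which is mainly controlled at translation, stood at 22.9 FPKM in positive and 30.3 FPKM in negative cells (log2 ratio -0.39, and 0.04 with TPM). *Ddit3*, which encodes the death-promoting factor CHOP, stood at 2.59 and 2.86 FPKM, and *Herpud1*, an ER membrane protein of the degradation route, at 1.65 and 2.35 FPKM. The median log2 ratio of this group was -0.25, 0.01 above that of all genes, and it was -0.01, -0.05 and 0.11 under the 3 other scalings, so it has no stable sign.

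Genes of the COPII coat went both ways, and paralogues of 1 function parted. *Sar1a* and *Sar1b* encode the GTPase that starts coat assembly. *Sar1a* stood at 23.1 FPKM in positive and 20.6 FPKM in negative cells, and *Sar1b* at 8.62 FPKM in positive and 16.2 FPKM in negative cells. Their log2 ratios of 0.16 and -0.84 lay on opposite sides of the median of all genes in all 12 settings, with *Sar1b* (mm9 chromosome 11, 51577165 to 51605455) below it. *Sec24a* and *Sec24c* encode cargo-binding subunits of the inner coat. *Sec24a* stood at 3.52 FPKM in positive and 2.75 FPKM in negative cells, and *Sec24c* at 10.6 FPKM in positive and 15.1 FPKM in negative cells, with log2 ratios of 0.27 and -0.47. *Sec24c* lay below the median of all genes in all 12 settings, and *Sec24a* above it in the 11 settings in which it was measured.

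Their partner in the inner coat, *Sec23b*, stood at 3.48 FPKM in positive and 5.06 FPKM in negative cells. Of the outer cage, *Sec31a* stood at 31.5 FPKM in positive and 26.7 FPKM in negative cells, and *Sec13*, whose product also serves in nuclear pores, at 13.7 and 16.4 FPKM. The 7 coat genes had a median log2 ratio of -0.24, 0.03 above that of all genes (0.08, 0.03 and 0.19 under the 3 other scalings), and a spread of 0.65 between their quartiles, the widest of the 6 roles.

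Cargo receptors and retrieval receptors had the highest median of the 6 roles, and all 6 genes lay above the median of all genes. *Kdelr2* and *Kdelr1* encode receptors that return chaperones ending in the KDEL signal, such as BiP, to the ER. *Kdelr2* stood at 42.7 FPKM in positive and 32.2 FPKM in negative cells, the highest log2 ratio of all 46 genes at 0.40 (mm9 chromosome 5, 144165499 to 144182955). *Kdelr1* stood at 18.7 FPKM in positive and 16.9 FPKM in negative cells. *Lman1* (ERGIC-53), a lectin that carries glycoproteins out of the ER, stood at 24.8 FPKM in positive and 20.4 FPKM in negative cells, and the cargo receptor gene *Surf4* at 19.8 and 18.6 FPKM. The p24 family genes *Tmed2* and *Tmed10* were below 0 as deposited and above 0 under the 3 other scalings, at 18.4 FPKM in positive against 22.0 FPKM in negative cells and at 11.5 against 13.9 FPKM. They lay only 0.03 and 0.02 above the median of all genes, and above it in 10 and 9 of the 12 settings, whereas the other 4 lay above it in all 12. The group's median log2 ratio was 0.11, 0.38 above that of all genes, and it was positive under each scaling tried (0.43, 0.39 and 0.56). None of the 6 reached 2-fold, and neither did 10401 of the 12096 measured genes. Of the 12 measured genes in the list of other cargo receptors, 8 lay above the median of all genes.

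**Figure D3:**
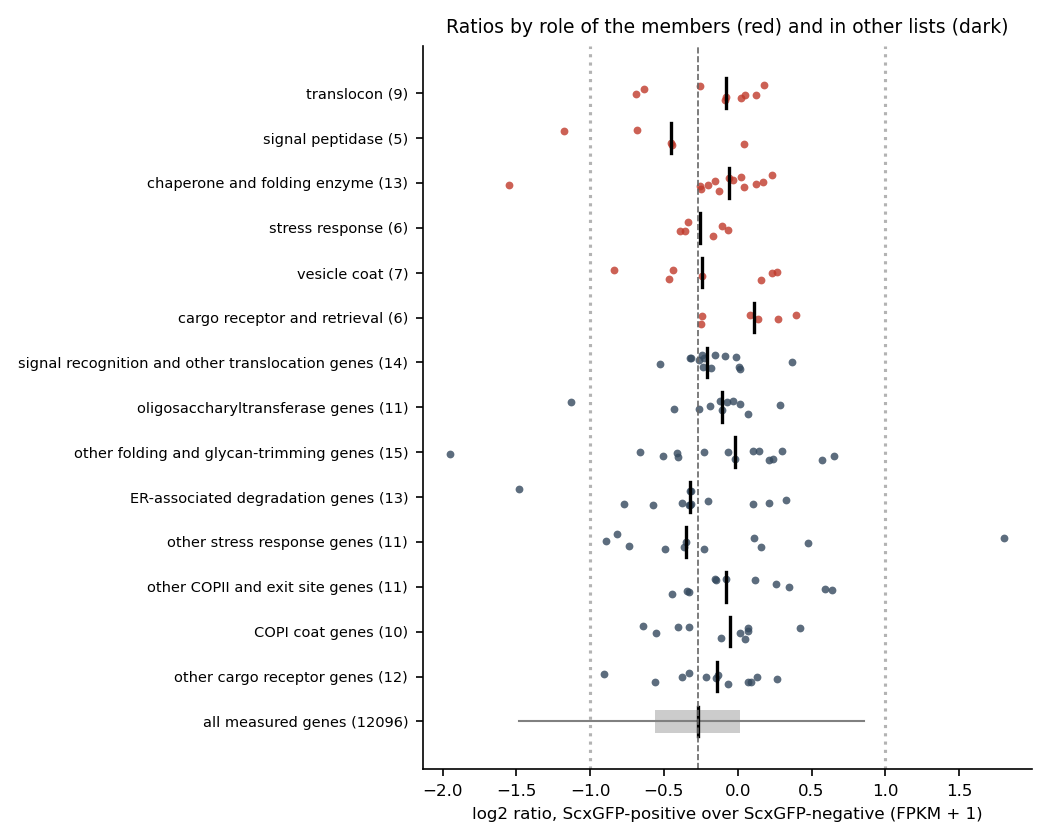
Log2 ratios (ScxGFP-positive over ScxGFP-negative, FPKM + 1) of single genes in the 6 roles (red) and in 8 lists of other genes of the pathway (dark), with the number measured in brackets; black bars are medians, and the last row gives the median, quartiles (box) and 5th to 95th percentiles (line) of all measured genes. The dashed line marks the median of all genes at -0.27 and the dotted lines mark 2-fold; most points lie between the dotted lines.

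Other genes of the same pathway, in 8 lists of 107 genes, were also mostly within 2-fold, as were most measured genes. In positive cells, 1 of the 97 measured genes was higher by 2-fold or more, 3 were lower by that much and 93 were within 2-fold, with a median log2 ratio of -0.15. Those shares were 1.03% higher and 3.09% lower, beside 4.03% and 9.98% of all measured genes. The higher gene was *Creb3l1*, which encodes a membrane-bound transcription factor of ER stress and collagen secretion, at 16.0 FPKM in positive and 3.86 FPKM in negative cells (log2 ratio 1.81). Its relative *Creb3l2* stood at 30.0 FPKM in positive and 21.3 FPKM in negative cells (0.48). Lowest in that list of other stress response genes was *Ppp1r15a* (GADD34), a phosphatase subunit that ends translational arrest, at 1.38 FPKM in positive and 3.42 FPKM in negative cells. The stress targets *Atf3*, *Chac1* and *Trib3* were all under 1 FPKM in both libraries, with *Trib3* listed at 0 in positive cells. Of the 11 measured genes in this list, 5 lay above the median of all genes.

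The lower genes were *Ero1l*, *Edem3* and *Ost4*. *Ero1l*, an oxidase that drives disulphide formation and is also induced by low oxygen, stood at 3.00 FPKM in positive and 14.4 FPKM in negative cells (log2 ratio -1.95). *Edem3*, which trims glycans of misfolded proteins for degradation, stood at 8.06 FPKM in positive and 24.2 FPKM in negative cells (-1.48). *Ost4*, a small subunit of the enzyme that attaches glycans, stood at 139 FPKM in positive and 306.5 FPKM in negative cells (-1.13), and its transcript is 511 bases long. Relative to the median of all genes its ratio was -0.87, inside 2-fold, while *Ero1l* and *Edem3* were at -1.68 and -1.21. The other 10 genes of that enzyme had ratios no higher than 0.29, at *Tusc3*, with 7.68 FPKM in positive and 6.10 FPKM in negative cells. In the folding list the highest was *Uggt2*, a sensor of glycoprotein folding, at 3.37 FPKM in positive and 1.78 FPKM in negative cells (0.65). Of the degradation genes, 4 of 13 lay above the median of all genes, the highest being *Sel1l* at 12.9 FPKM in positive and 10.04 FPKM in negative cells.

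In signal recognition and translocation, 14 genes were measured, and the range ran between *Srp14* at 15.5 FPKM in positive and 22.8 FPKM in negative cells and *Sec61a2*, a second channel gene, at 13.3 FPKM in positive and 10.1 FPKM in negative cells. Other COPII and exit site genes ranged between *Ctage5* at 11.1 FPKM in positive and 15.5 FPKM in negative cells and *Sec24d* at 6.95 FPKM in positive and 4.10 FPKM in negative cells. *Sec24d* (log2 ratio 0.64) was followed by *Sec23a*, at 9.65 FPKM in positive and 6.06 FPKM in negative cells (0.59), a gene singled out after its value was seen. The paralogue *Sec23b* described above had a ratio of -0.44. COPI coat genes, which serve return traffic, had a median of -0.05 and ranged between *Copz1* (17.4 FPKM in positive, 27.7 FPKM in negative cells) and *Copz2* (13.8 FPKM in positive, 10.04 FPKM in negative cells). Other cargo receptors had a median of -0.14, 0.13 above that of all genes, and 8 of the 12 measured lay above it. They ranged between *Tmed5* (1.45 FPKM in positive, 3.59 FPKM in negative cells) and *Tmed3* (3.71 FPKM in positive, 2.91 FPKM in negative cells). The estimate of *Kdelr3* failed in the positive library and no ratio is given for it.

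Short transcripts as a whole had lower ratios in this pair of libraries, and 4 of the 5 members that stood lowest are in the shortest class. The trend of all measured genes with transcript length was -0.59 at 500 bases, -0.44 at 1000 bases, -0.31 at 2000 bases and -0.20 at 4000 bases. Among the shortest 20% of measured genes (up to 1470 bases) the median log2 ratio was -0.46 and 16.3% were at least 2-fold lower. The 12 members in that class, among them *Sec61b*, *Ssr4*, *Sec11c*, *Sar1b* and *Sdf2l1*, had a median of -0.35. The other of those 5, *Spcs3*, has a transcript of 3465 bases. The 34 longer members had a median of -0.06, against -0.23 for all longer genes. Of the 12 short members 2 were at least 2-fold lower (*Sdf2l1* and *Sec11c*), beside the 16.3% of all short genes. Of the longer members 0 were, beside 8.39% of all longer genes. With the length trend removed, *Sec61b* and *Ssr4* had residual log2 ratios of -0.06 and -0.15, *Sec11c*, *Sar1b* and *Spcs3* of -0.66, -0.45 and -0.45, and *Sdf2l1* of -1.13. The residual median of all 46 members was 0.18. The part that length plays in single ratios was not tested.

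**Figure D4:**
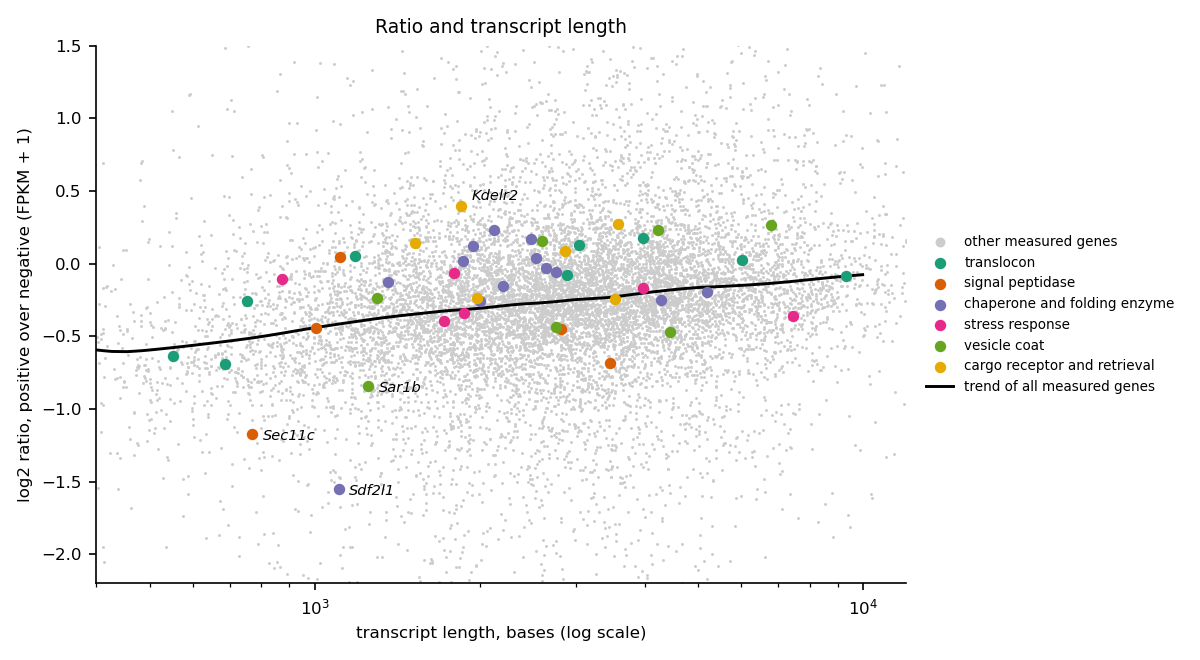
Log2 ratio (ScxGFP-positive over ScxGFP-negative, FPKM + 1) of each measured gene (grey) and of the 46 members (coloured by role) against transcript length on a log axis, with the trend of all measured genes in black; genes outside the plotted ranges are not shown. The trend climbs between -0.59 at 500 bases and -0.11 at 8000 bases, and *Sdf2l1* at 1108 bases lies farthest below it among the members.

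Markers of most cell types differed far more than the members did. Of 10 tendon genes 9 were 2-fold or more higher in positive cells, with a summed FPKM of 889 in positive and 124 in negative cells. *Scx*, whose reporter was sorted on, is 1 of the 10. *Col1a1* and *Col1a2* gave 268 and 285 FPKM of the sum in positive cells. All of 7 measured skeletal muscle genes were 2-fold or more higher too (summed FPKM of the 8 listed, 151 in positive and 19.1 in negative cells). Over all measured genes, 4.03% were higher by that much and 9.98% were lower. As deposited, cartilage genes lay within 2-fold (6 of 6 measured, 91.5 in positive and 69.1 in negative cells). Relative to the median of all genes they were split. *Col2a1* and *Matn1* then lay past 2-fold higher, at log2 ratios of 1.005 and 1.168. Of the 6 measured cartilage genes, 4 lay above that median, and the lowest, *Col9a1*, was at -0.152 relative to it. Markers of other lineages were lower in positive cells: epidermis 7 of 7 (11.8 against 319 summed FPKM), endothelium 6 of 7 (3.05 against 47.9), macrophage and leukocyte 8 of 8 (10.9 against 403), mast cell 6 of 6 measured (5.49 against 453), erythroid 8 of 8 (176 against 9100) and Schwann cell 5 of 6 (4.02 against 35.5). Of these marker lists, 1 gene was listed at 0, the mast cell gene *Fcer1a* in positive cells, and it was under 1 FPKM in negative cells too. In such bulk samples, fewer cells of a type and less RNA per cell cannot be told apart. Which cells of the negative pool carry the transcripts of *Sdf2l1*, *Sec11c* or *Sar1b* was not tested.

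As a major cargo of this pathway in connective tissue, type I collagen was set beside the members. *Col1a1* stood at 268 FPKM in positive and 44.6 FPKM in negative cells, a log2 ratio of 2.56, and *Col1a2* at 285 FPKM in positive and 60.3 FPKM in negative cells, a log2 ratio of 2.22. The highest ratio among the 46 members was 0.40. The difference between the machinery and its cargo was not tested, since each population gave 1 library.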

How the data were processed

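RNA of sorted forelimb cells was sequenced in 2 samples, 1 per group, grouped by the labels' cell population. Per the labels' protocols the cDNA was made with an amplifying kit (NuGEN Ovation RNA-Seq v2), which does not mark strand, so overlapping genes share reads: *Spcs1*, *Pdia4*, *Pdia6*, *Ddit3* and *Surf4* overlap another symbol by 50 to 274 bases of locus. Build mm9, TopHat 1.4.1 and Bowtie 0.12.7 are named in the submitters' processing notes. The version of the abundance program was not given in the sources used here. The authors deposited FPKM and coverage (depth of aligned bases) for 28107 RefSeq transcripts, per the file headers. Aligned bases are coverage times length. Read length and total mapped fragments were not given with the FPKM values, so the depth in reads is unknown and no count test was run.

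FPKM was summed by symbol, and symbols with a failed row were missing. The pseudocount was 1, the filter 1 FPKM in either library and the call 2-fold. The length trend is a lowess curve (span 0.3, statsmodels 0.14.6), checked on simulated data. Alternatives were pseudocounts of 0.1 and 5, filters of 0 and 5 FPKM, 4 scalings, length trend removal, the top transcript alone and rows marked OK only. Genes named are all 46 members and, of each other list, those past 2-fold with the highest and the lowest. *Sdf2*, *Creb3l2*, *Sec23a*, *Atf3*, *Chac1*, *Trib3*, *Kdelr3*, *Col1a1*, *Col1a2*, *Col2a1*, *Matn1* and genes with a promoter match are named beside that rule, chosen after their values were seen. The members and lists were chosen with earlier results of these data known. Pseudogenes were looked for only under a member's symbol followed by -ps. Those of *Spcs2* and *Tmed10* are annotated, so their reads may be shared. Pseudogenes under other names were not looked for. Positions are mm9, counted from 1; promoter positions are GRCm38.p6, and 9 members had no entry in that table.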

Additional observations from a re-analysis of the deposited data

How the results depend on the processing

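The count of members at least 2-fold lower was 2 as reported and 1 with a pseudocount of 5, with the median ratio set to 1, with equal upper quartiles, with TPM, with TPM without haemoglobin genes and transcripts under 200 bases, and with the length trend removed. *Sec11c* is the member lost each time, and *Sdf2l1* remained. The count of higher members was 0 in all 11 alternatives. All 500 member values moved by less than 1.5-fold (largest move 0.58 log2), and so did the medians of the 6 roles and of the 8 other lists. Signs are less firm: 16, 16, 17 and 18 of the 46 members changed sign under the 4 scalings, in the order given above, and 12 with the length trend removed. Relative to the median of all genes, 18 members lay above and 11 below in every setting. The members' median lay 0.07 to 0.22 above that of all genes in 10 alternatives and 0.08 below it (-0.08) with no filter, where genes at or near 0 in both libraries set the median of all genes to -0.04. With 1 library per group there are no replicates to leave out. No paired analysis was possible because each group has 1 library.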

Other observations

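Of the 46 members, 7 are listed with more than 1 transcript. For *Canx* the split between transcripts differed more than the total: the transcript of 4285 bases stood at 11.0 FPKM in positive and 2.31 FPKM in negative cells, that of 4253 bases at 4.86 FPKM in positive and 12.9 FPKM in negative cells, and that of 4289 bases at 13.2 FPKM in positive and 19.5 FPKM in negative cells. How well fragments can be divided among these transcripts was not tested. With the top transcript alone the log2 ratio of *Canx* was -0.53, against -0.25 for the sum. For *Lman1* both listed transcripts were higher in positive cells, the longer at 15.8 FPKM in positive and 13.8 FPKM in negative cells and the shorter at 9.03 FPKM in positive and 6.58 FPKM in negative cells. *Hspa5* was carried mainly by its transcript of 2534 bases, at 136 FPKM in both libraries; the other, of 2616 bases, stood at 5.61 FPKM in positive and 2.17 FPKM in negative cells.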
